A study of Mus musculus with 4 samples.

Results

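The transcripts of 10 genes of the Notch pathway, namely Notch1, Notch2, Mfng, Adam10, Rbpj, Maml1, Maml2, Dtx1, Hes1 and Hes5, were measured in RNA-Seq libraries of wild-type mouse B1a and B2 cells. The genes were chosen by name as receptors, processing enzymes, nuclear cofactors and targets of the pathway, out of 20599 gene symbols in the deposited tables, and all 10 were present. They are written here in the order of their roles. B1a cells are an innate-like B cell population of the body cavities that arises largely from fetal progenitors, and B2 cells are the conventional B cells, of which follicular B cells in the spleen are the main mature type.

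Notch is a cell surface receptor that is cleaved when it binds a ligand on a neighboring cell. Fringe enzymes such as MFNG add sugars to the receptor, the protease ADAM10 makes the first ligand-dependent cut, and gamma-secretase then frees the intracellular domain. This domain enters the nucleus, binds the DNA-binding protein RBPJ together with a Mastermind-like coactivator (MAML), and activates targets such as the HES transcription factors and DTX1. In the spleen, Notch2 is the receptor known to direct B cells to the marginal zone fate.

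Both groups were labelled as wild-type C57BL/6 mice of 4 weeks of age. The B1a group (n = 2) was sorted from peritoneal washes as CD23- IgM+ CD5+ B cells, and the B2 group (n = 2) was sorted from spleen as follicular B cells that were CD21+, IgD hi and IgM lo. The study's methods give an older age for the mice of the B2 group and a smaller cell number for some B1a libraries, and describe the controls in one place as littermates of Dnmt3a-deficient mice and in another as C57BL/6J mice. Whether these animals carried an allele of that cross was not stated, and the effects of lineage, of organ and, going by the methods, of age cannot be told apart. In such bulk samples fewer cells of a type and less RNA per cell cannot be told apart either. The comparison asks how the expression of the pathway's parts differed between the B1 and B2 lineages.

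The libraries held 11032732 to 18588623 counts in total. Genes with at least 1 count numbered 11290 and 12456 in B1a and 14223 and 12934 in B2. The B1a replicates were less alike than the B2 replicates: across the 12078 genes tested, log2 CPM correlated at r = 0.84 between the B1a libraries and at r = 0.97 between the B2 libraries (a description across genes, which are not independent replicates). The share of these genes that differed 2-fold or more between replicates was 27.2% in B1a and 4.08% in B2. Markers of the sorted types followed the labels. Of these, Cd5, Fcer2a (CD23) and Cr2 (CD21) encode proteins used in the sort, so they are no independent check. The summed level of the B1a list (Cd5, Spn, Itgam, Bhlhe41, Zbtb32) was 1138 and 859 CPM in B1a and 79.2 and 77.5 CPM in B2, and that of the follicular list (Fcer2a, Cr2) was 156 and 147 CPM in B1a and 1988 and 1998 CPM in B2. Lists of other cell types also differed, and their part in the results below was not tested. The macrophage list (7 genes, of which 3 did not overlap between the groups and were higher in B1a) summed to 174 and 200.2 CPM in B1a and 54.9 and 62.8 CPM in B2. The erythroid list summed to 75.9 and 485 CPM in B1a and 37.7 and 83.2 CPM in B2. The mast cell list summed to 33.1 and 6.49 CPM in B1a and 0 and 0.968 CPM in B2. The T cell list stood at 49.6 and 22.8 CPM in B1a and 42.5 and 45.9 CPM in B2, with 4 of its 8 genes at 0 in both B1a libraries. The marginal zone list was mixed, with 3 of 8 genes higher in B1a and 4 of 8 higher in B2 without overlap. The transitional list of 3 genes was mixed too, with Cd24a higher in B1a and Cd93 and Vpreb3 higher in B2 without overlap. Vpreb3 stood at 0 CPM in both B1a libraries and at 24.2 and 20.7 CPM in B2. The stromal and endothelial list summed to 246 and 256 CPM in B1a and 350 and 297 CPM in B2. Nearly all of this was Pecam1 (239 and 256 CPM in B1a, 348 and 296 CPM in B2), and Col1a2 and Ccl21a were at 0 in each library.

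RBPJ recognizes a short core sequence, TGGGAA. To show what start regions of the member genes hold, windows of 250 bases before annotated starts in RefSeq (GRCm38.p6) were searched. The search covered this core and its reverse complement TTCCCA. Windows were at hand for 8 of the 10 members, and not for Hes1 and Mfng. They numbered 10, as Rbpj and Maml2 each had more than 1 start with a window. The windows of Hes5, Rbpj, Maml1 and Maml2 lie inside the gene spans given below, and those of Adam10 and Dtx1 lie partly inside. For Hes5, Rbpj, Maml1 and Maml2, sequence before the outer end of the span was therefore not searched. The words first and second count only starts with a window. The core lay in 4 of the 10 windows and in 3 of the 8 members (Rbpj, Maml2 and Hes5), against 21.6% of all 32817 windows in the genome. The windows of Rbpj overlap, and the single match of the second is the reverse match of the first, so that 1 site is counted in both. The window of Hes5, the first of Rbpj and both of Maml2 are printed 5′ to 3′ on the plus strand, on which all 3 genes lie, with each match in capitals. They are shown because Hes5 is a standard Notch target with paired matches, because Rbpj was the member called different between the cell types, and because Maml2 was measured in separate transcript entries.

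Hes5, chr4:154960673-154960922: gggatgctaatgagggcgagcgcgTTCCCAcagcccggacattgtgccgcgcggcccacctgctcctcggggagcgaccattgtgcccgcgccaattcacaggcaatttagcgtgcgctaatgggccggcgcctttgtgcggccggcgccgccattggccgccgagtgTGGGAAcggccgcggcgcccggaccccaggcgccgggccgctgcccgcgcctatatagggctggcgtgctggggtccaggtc
Rbpj, first start, chr5:53590096-53590345: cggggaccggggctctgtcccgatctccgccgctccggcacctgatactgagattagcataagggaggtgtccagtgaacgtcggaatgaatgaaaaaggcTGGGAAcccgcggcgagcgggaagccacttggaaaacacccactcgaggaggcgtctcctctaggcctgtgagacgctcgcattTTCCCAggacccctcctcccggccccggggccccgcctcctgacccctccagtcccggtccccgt
Maml2, first start, chr9:13297708-13297957: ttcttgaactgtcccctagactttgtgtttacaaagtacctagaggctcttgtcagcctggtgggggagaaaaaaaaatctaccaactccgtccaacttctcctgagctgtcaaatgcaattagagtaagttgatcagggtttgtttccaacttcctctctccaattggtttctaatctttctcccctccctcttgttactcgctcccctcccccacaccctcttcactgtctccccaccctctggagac
Maml2, second start, chr9:13662210-13662459: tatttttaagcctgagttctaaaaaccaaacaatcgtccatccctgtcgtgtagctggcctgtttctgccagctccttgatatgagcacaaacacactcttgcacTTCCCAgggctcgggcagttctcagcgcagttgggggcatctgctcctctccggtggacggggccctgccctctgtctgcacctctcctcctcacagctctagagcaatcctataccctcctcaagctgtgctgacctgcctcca

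The Hes5 window held the core in opposite orientations, beginning 226 and 82 bases before the start, and both matches also carried the longer form GTGGGAA. At least 2 matches of that longer form occurred in 0.162% of all windows, and at least 2 of the core, as in the first Rbpj window, in 2.77%. The first Maml2 window held no core match and the second held 1. A match is a description of these letters and not a measured binding site.

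Of the 10 members, 1 passed the test, which was Rbpj, higher in B1a, and 9 were not called. Among all tested genes 5.74% were called (4.24% higher in B1a and 1.5% higher in B2) by edgeR's quasi-likelihood test at an adjusted p of 0.05. An unadjusted p under 0.05 was found for 4 members (Notch2, Rbpj, Maml2 and Hes1), against 20.9% of all tested genes. In CPM, the B1a and B2 libraries did not overlap in 4 members, against 54.3% of all tested genes. Notch2 and Rbpj were higher in B1a (25.3% of all tested genes), and Maml2 and Hes1 were higher in B2 (29%). In TPM, Notch2 overlapped, and Notch1, Mfng, Maml1 and Dtx1 did not, with both B2 libraries higher. That share was not computed in TPM, where the median log2 fold change of all genes was -0.30 (pseudocount 1). Overlap below is in CPM unless TPM is named. The median log2 fold change (B1a minus B2, as throughout) was -0.02 over the members and -0.03 over all tested genes, and 6 members had a log2 fold change between -0.5 and 0.5. With 2 libraries against 2, an exact permutation test of a single gene cannot give a two-sided p below 0.33, so each test below is the model fitted across all genes.

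**Figure D1:**
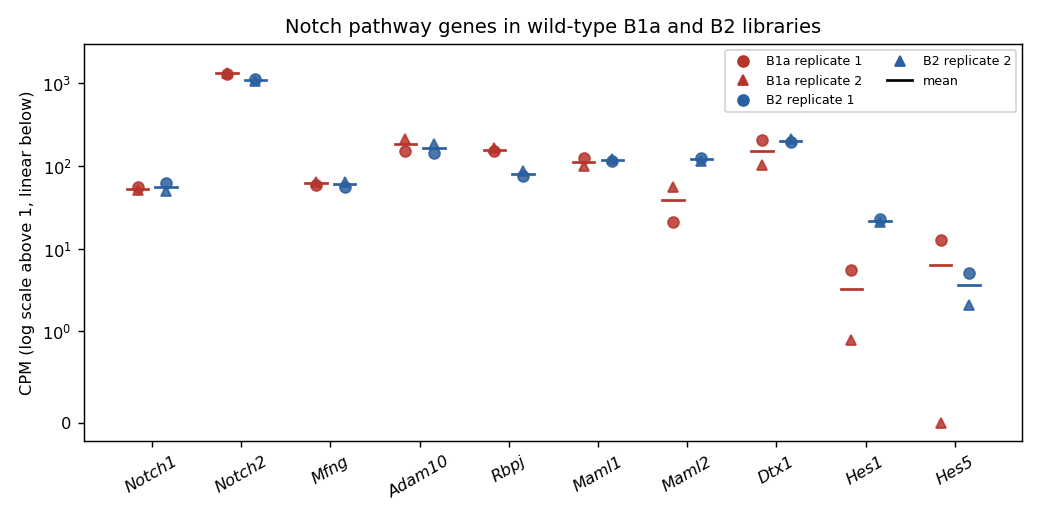
The CPM of each member gene in each library is plotted on a scale that is logarithmic above 1 and linear below, with a bar at each group's mean. The 4 libraries lie close together for Notch1, Notch2, Mfng and Maml1, the B1a points of Rbpj (153 and 163 CPM) lie above its B2 points (75.0 and 86.9 CPM), and the B1a replicates of Maml2, Dtx1, Hes1 and Hes5 lie apart.

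Of the receptors, Notch2 (chr3:98013538-98150367) was the most abundant member in both cell types. It stood at 1304 and 1348 CPM in the B1a libraries and at 1122 and 1069 CPM in the B2 libraries. (CPM are counts scaled to a common library size, without TMM adjustment for the marker lists above and after it elsewhere.) Both B1a libraries lay above both B2 libraries, by 1.21-fold, but the difference was not called (log2 fold change 0.28, SE 0.10, adjusted p = 0.186). It reached an adjusted p of 0.0170 with DESeq2, whereas on the TPM scale the groups overlapped (288 and 291 TPM in B1a, 292 and 274 TPM in B2). Without B1a replicate 1 or 2 the adjusted p was 0.00751 and 0.0190, and without B2 replicate 1 or 2 it was 0.861 and 1.00. A fit without a B1a library takes its spread from the B2 pair alone, and such fits called 3953 and 6143 of all genes tested. Notch1 (chr2:26457902-26503822), the receptor that directs T cell fate, stood at 55.3 and 51.4 CPM in B1a and 62.4 and 50.2 CPM in B2. The groups overlapped and no difference was detected (log2 fold change -0.08, SE 0.24, adjusted p = 0.906).

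Compared per transcript length, Notch2 made up 95.5% and 95.9% of the summed TPM of the 4 Notch receptor genes in B1a and 93.4% and 93.7% in B2. The ratio of Notch2 to Notch1 TPM was 21.3 and 23.7 in B1a and 16.2 and 19.2 in B2. Notch2 was therefore the main receptor transcript in each of the 4 libraries.

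MFNG, or Manic fringe, elongates a sugar on the receptor and so tunes which ligands it answers. Mfng (chr15:78755882-78773516) stood at 58.8 and 64.3 CPM in B1a and 55.3 and 64.1 CPM in B2, and the groups overlapped (log2 fold change 0.04, SE 0.22, adjusted p = 0.943). Its sign turned to -0.02 with upper quartile factors and to -0.19 on either TPM scale, so no direction is given for it. Adam10 (chr9:70678944-70780229), the protease of the first cut, stood at 152 and 215 CPM in B1a and 143 and 183 CPM in B2. The groups overlapped here too (log2 fold change 0.17, SE 0.22, adjusted p = 0.747, and -0.08 on either TPM scale). Adam10 was called in 0 of 10 alternative ways of processing. Of the fits that left out 1 library, only that without B1a replicate 1 called it (log2 fold change 0.40). The log2 fold change was -0.10 without B1a replicate 2. Both of these fits took their spread from the B2 pair alone.

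Rbpj rose in B1a relative to B2 by 1.95-fold. The gene (chr5:53555779-53657445) encodes the DNA-binding protein on which all canonical Notch signals meet, and which holds targets silent in the absence of Notch. It stood at 153 and 163 CPM in B1a (158 ± 7.13, SD, n = 2) and 75.0 and 86.9 CPM in B2 (80.9 ± 8.45, SD, n = 2). Both B1a libraries lay well above both B2 libraries (log2 fold change 0.97, SE 0.17, adjusted p = 0.0305). In TPM the levels were 64.1 and 66.9 in B1a and 36.9 and 42.1 in B2. The call held in 8 of 10 alternative ways of processing, with adjusted p from 0.000362 to 0.127, and was lost on both TPM scales. It was also lost without B2 replicate 1 (0.86, adjusted p = 0.262) and without B2 replicate 2 (1.07, adjusted p = 0.0996), with the value itself little moved.

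**Figure D2:**
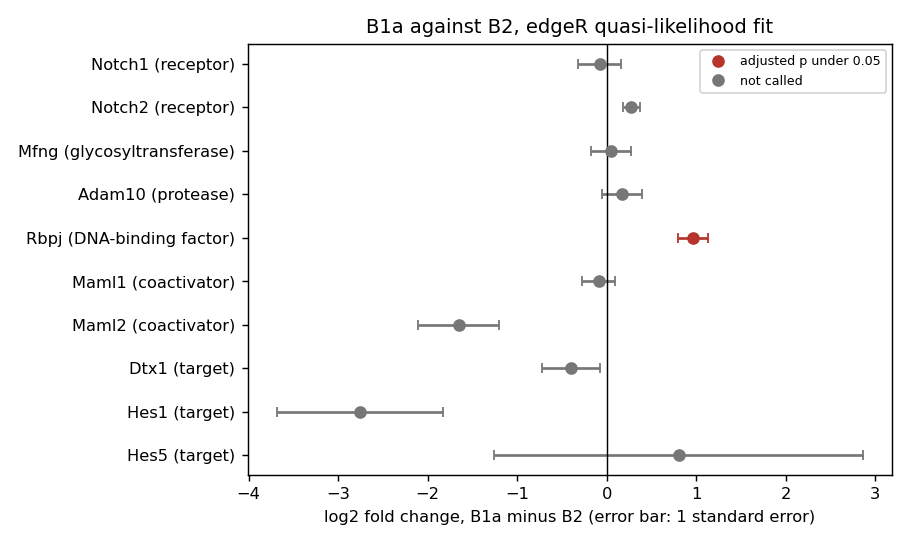
The log2 fold change (B1a minus B2) of each member is plotted with 1 standard error, red where the adjusted p was under 0.05. Rbpj (0.97) is the red point, Maml2 (-1.65) and Hes1 (-2.75) lie farthest to the left, and the error bar of Hes5 (SE 2.06) spans 0.

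The Mastermind-like coactivators bridge the Notch and RBPJ complex to histone acetyltransferases. Maml1 (chr11:50255634-50293131) stood at 124 and 98.7 CPM in B1a and 114 and 122 CPM in B2. Its groups overlapped (log2 fold change -0.09, SE 0.18, adjusted p = 0.857). Maml2 (chr9:13296561-13709533), a paralogue with the same role, stood at 20.9 and 55.6 CPM in B1a and 126 and 114 CPM in B2. Both B2 libraries lay above both B1a libraries, the group means being 120 ± 8.47 and 38.3 ± 24.6 CPM (SD, n = 2 each), a 3.14-fold difference. The difference was not called (log2 fold change -1.65, SE 0.45, adjusted p = 0.110), and the B1a replicates themselves differed 2.66-fold. It was called in 8 of 9 alternative ways of processing (adjusted p from 1.076e-06 to 0.106). The entries as deposited are not among the 9, because they split Maml2 into separate entries, and neither entry was called there. In the 4 fits that left out a library, the log2 fold change of Maml2 ran from -2.53 to -1.11.

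The counts of Maml2 came from 2 entries in the files, one of 604 bases and one of about 5048 bases, both lower in B1a. The short entry had 62 and 61 counts in B1a and 344 and 458 counts in B2, and here the B1a replicates were alike (log2 fold change -2.28, SE 0.45, adjusted p = 0.0523). The longer entry had 171 and 558 counts in B1a and 1113 and 1730 counts in B2 (log2 fold change -1.51, SE 0.54, adjusted p = 0.197). The spread between the B1a replicates of Maml2 thus lay in the longer entry. The entries carry no coordinates, so neither was assigned to one of the printed start regions.

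Maml3, the remaining paralogue, which is no member and is named with its values seen, stood at 24.7 and 19.7 CPM in B1a and 62.3 and 48.7 CPM in B2 (log2 fold change -1.32, SE 0.30, adjusted p = 0.0664). Per transcript length, and with the longer entry standing for Maml2, Maml1 held 76.5% and 60.8% of the summed TPM of the family in B1a and 44.2% and 49.1% in B2. Maml2 held 10.4% and 28.9% in B1a and 35.4% and 34.3% in B2. The family sum was 68.2 and 66.7 TPM in B1a and 128 and 122 TPM in B2, so that the ratio of Rbpj to the family sum was 0.940 and 1.00 in B1a and 0.288 and 0.347 in B2. With both Maml2 entries summed, Maml1 held 56.5% and 45.1% in B1a and 20.2% and 24.6% in B2, the family sum was 92.4 and 89.9 TPM in B1a and 281 and 242 TPM in B2, and the ratio of Rbpj to it was 0.694 and 0.744 in B1a and 0.131 and 0.174 in B2. The shares of Maml1 and Maml2 and the ratio of Rbpj to the family sum thus depend on which Maml2 entries are counted. The order of the groups in them does not. These ratios did not overlap between the groups and have no test of their own.

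**Figure D3:**
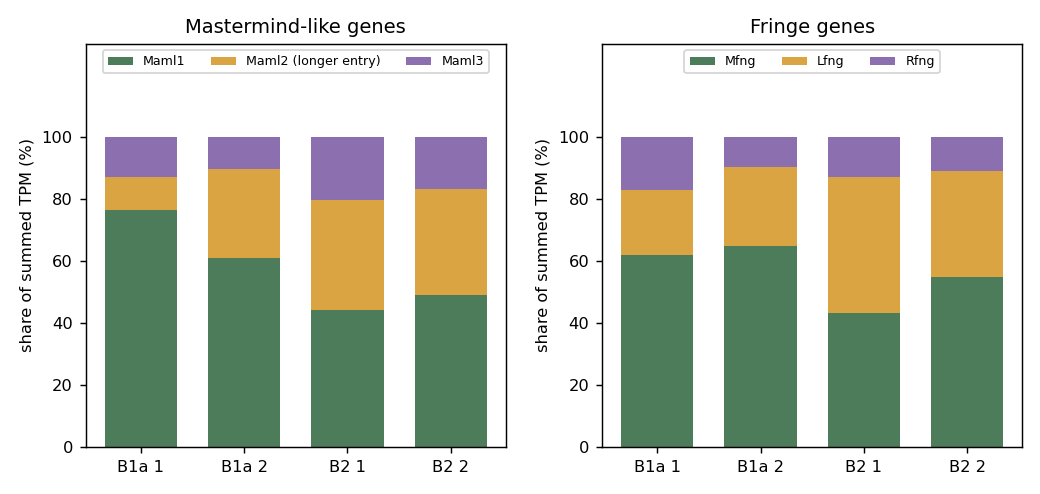
Stacked bars show, for each library, the share (%) of summed TPM held by each Mastermind-like gene (left) and each Fringe gene (right). With the 604-base Maml2 entry left out, Maml1 takes 60.8% or more of its family in B1a and 49.1% or less in B2, and Mfng takes 61.9% or more of its family in B1a and 54.7% or less in B2.

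Among the Fringe genes, Mfng held 61.9% and 65.0% of the summed TPM in B1a and 43.4% and 54.7% in B2. Lfng, or Lunatic fringe, held 21.0% and 25.3% in B1a and 43.7% and 34.3% in B2. Its level was 25.0 and 31.5 CPM in B1a and 69.9 and 50.5 CPM in B2, and its difference was not called (log2 fold change -1.09, SE 0.30, adjusted p = 0.109). Rfng, also named with its values seen, overlapped between the groups (18.8 and 11.2 CPM in B1a, 19.2 and 15.0 CPM in B2).

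The targets were measured less firmly. Dtx1 (chr5:120680203-120711867) encodes the ubiquitin ligase Deltex, a target and modulator of Notch in lymphocytes. It stood at 205 and 102 CPM in B1a and 195 and 211 CPM in B2. The first B1a library lay within the B2 range and the second lay below it, so the groups overlapped in CPM. In TPM both B1a libraries (130 and 63.2) lay below both B2 libraries (145 and 155). The difference was not called (log2 fold change -0.40, SE 0.32, adjusted p = 0.566), was -0.99 (adjusted p = 2.569e-08) without B1a replicate 1 and 0.01 (adjusted p = 0.942) without B1a replicate 2. It was not called without either B2 library.

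Hes1 (chr16:30065357-30067796) encodes a transcriptional repressor of the hairy and enhancer of split family, the classical target of Notch. It stood at 5.56 and 0.90 CPM in B1a, from 62 and 10 counts, and at 22.9 and 20.8 CPM in B2, from 264 and 398 counts. The B2 libraries were alike and both lay above both B1a libraries, which differed 6.18-fold from each other. The mean difference was 6.75-fold and was not called (log2 fold change -2.75, SE 0.93, adjusted p = 0.169). It passed in 2 of 10 alternative ways of processing, with DESeq2 (adjusted p = 0.0274) and with a replicate block (adjusted p = 0.00921), within a range up to 0.206. Leaving out B1a replicate 1 gave a log2 fold change of -4.59 and leaving out B1a replicate 2 gave -1.97, both called with the spread taken from B2 alone. It was not called without B2 replicate 1 (adjusted p = 0.743) or B2 replicate 2 (adjusted p = 0.657).

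Hes5 (chr4:154960626-154962372), a related repressor, stood at 12.5 and 0 CPM in B1a, from 140 and 0 counts, and at 5.08 and 2.09 CPM in B2, from 58.6 and 40 counts. One B1a library was the highest of the 4 and the other the lowest, at a depth where 3 counts, the upper limit that a count of 0 allows, equal 0.27 CPM. No direction can be given (log2 fold change 0.80, SE 2.06, adjusted p = 0.888). The sign was negative with limma-voom (-1.92), on the TPM scales and with a replicate block (-1.70), and it was -8.65 without B1a replicate 1 and 1.82 without B1a replicate 2, both called, and was not called without either B2 library. The value of -8.65 sets a lone library at 0 against B2 and depends on the prior count.

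In order of TPM, which compares genes per length, the members ran in B1a from Notch2 (mean 290 TPM) through Dtx1 (96.6), Adam10 (92.6), Mfng (79.7), Rbpj (65.5), Maml1 (46.4), Maml2 by its longer entry (13.2), Notch1 (12.9) and Hes5 (12.1) to Hes1 (5.39). In B1a the neighbors Dtx1 and Adam10, Adam10 and Mfng, and each pair from Maml2 down to Hes1 overlapped in their libraries. In B2 the order was Notch2 (283), Dtx1 (150), Adam10 (97.1), Mfng (91.3), Maml1 (58.1), Maml2 (43.5), Hes1 (42.8), Rbpj (39.5), Notch1 (16.1) and Hes5 (8.09). With both entries summed, Maml2 stood at a mean of 36.9 TPM in B1a and 180.2 TPM in B2, which would place it after Notch2 in B2. There Adam10 and Mfng, Maml2 and Hes1, and Hes1 and Rbpj overlapped. Rbpj ranked above Maml1 in both B1a libraries and below it in both B2 libraries.

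**Figure D4:**
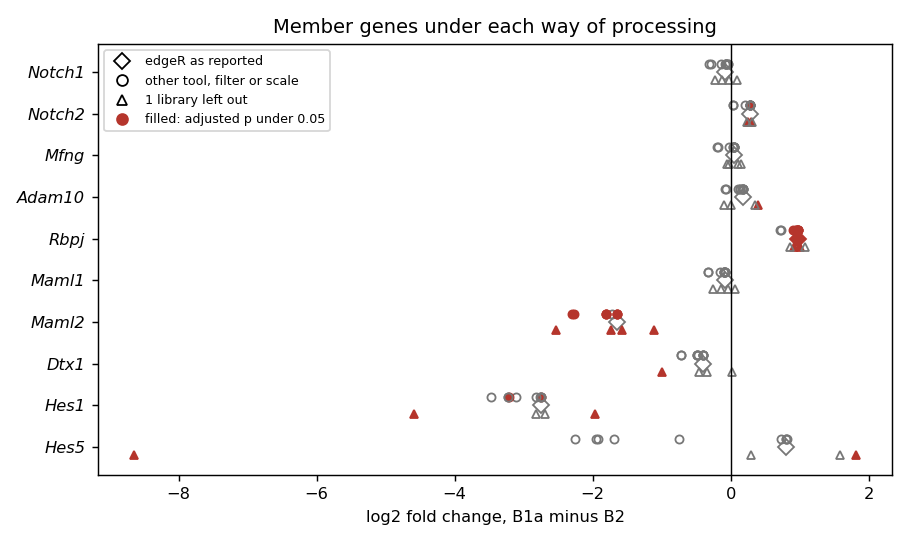
The log2 fold change (B1a minus B2) of each member is plotted for the edgeR fit (diamond), for other tools, filters and scales (circles) and with 1 library left out (triangles), filled red where the adjusted p was under 0.05. Rbpj stays between 0.72 and 1.07, Maml2 between -2.53 and -1.11, and Hes5 spreads from -8.65 to 1.82.

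The wider pathway was read from a list of 56 further genes in 8 roles, of which 49 passed the filter on low counts. Of these, 2 were called, both higher in B1a (Fbxw7 and Psenen), 0 were called higher in B2 by edgeR and 47 were not called, against the background of 5.74% given above. An unadjusted p under 0.05 was found for 16 of the 49, against 20.9% of all tested genes, and DESeq2 called 12, against 12.8% of all tested genes. The groups did not overlap in 15 that were higher in B1a and 17 that were higher in B2, against 25.3% and 29% of all tested genes.

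**Figure D5:**
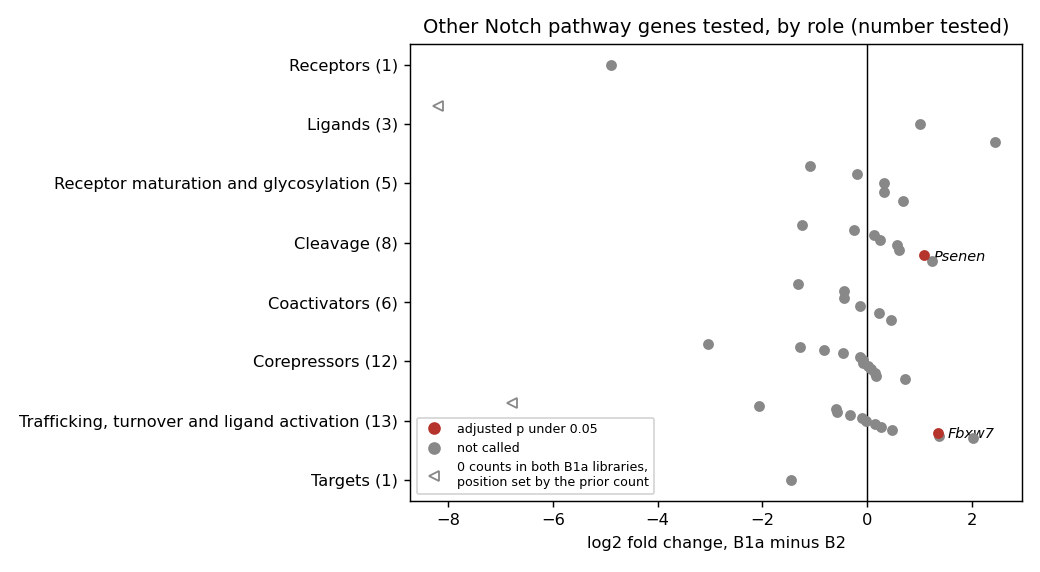
Each point is 1 of the 49 other pathway genes tested, placed by its log2 fold change (B1a minus B2) within its role, and colored where the adjusted p was under 0.05. The colored points are Psenen (1.10) among the cleavage genes and Fbxw7 (1.36) among the turnover genes, and open triangles mark genes at 0 counts in both B1a libraries, whose position depends on the prior count.

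Fbxw7, which encodes the ubiquitin ligase subunit that marks the Notch intracellular domain for degradation, rose in B1a by 2.57-fold. It stood at 204 and 217 CPM in B1a and 80.1 and 83.7 CPM in B2 (log2 fold change 1.36, SE 0.15, adjusted p = 0.00701), with replicates close together in both groups. The call held in 10 of 10 alternative ways of processing. Psenen, the small subunit of gamma-secretase, rose by 2.14-fold, from 34.4 and 36.6 CPM in B2 to 79.0 and 73.1 CPM in B1a (log2 fold change 1.10, SE 0.22, adjusted p = 0.0499). Its adjusted p lay close to the threshold, ran from 0.00530 to 0.0612 over 10 alternatives and was 0.496 without B2 replicate 1 and 0.416 without B2 replicate 2.

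The other cleavage genes were not called. Psen2, a catalytic subunit of gamma-secretase, stood at 101 and 68.1 CPM in B1a and 59.4 and 51.3 CPM in B2 (adjusted p = 0.265), and both B1a libraries lay above both B2 libraries. Of the maturation genes, none of 5 was called. Furin, the convertase that cuts the receptor on its way to the surface, stood at 114 and 87.7 CPM in B1a and 64.0 and 61.8 CPM in B2 (adjusted p = 0.150). Pofut1, which adds the fucose that Fringe enzymes extend, stood at 110 and 82.8 CPM in B1a and 80.5 and 73.2 CPM in B2 (adjusted p = 0.477).

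None of the 6 coactivators was called, and 4 of them did not overlap and were higher in B2, as were 29% of all tested genes. The acetyltransferase genes Crebbp (455 and 392 CPM in B1a, 542 and 606 CPM in B2) and Ep300 (461 and 467 CPM in B1a, 577 and 687 CPM in B2) had log2 fold changes of -0.44 and -0.45, with adjusted p of 0.136 and 0.123. Both were called by DESeq2 and with the replicate block. Snw1, a scaffold of the same complex, stood at 73.6 and 72.6 CPM in B1a and 81.4 and 78.3 CPM in B2 (adjusted p = 0.787). None of the 12 corepressors was called either. Ncor1, Ctbp1 and Hdac1, which have the highest TPM among them, had log2 fold changes of -0.13, 0.17 and -0.08, the second of which turned to -0.05 on the TPM scales.

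Of the 13 genes of trafficking, turnover and ligand activation, Fbxw7 was called. The ubiquitin ligases Itch and Dtx3l, which rank next by TPM, overlapped between the groups (adjusted p = 0.958 and 0.558). The paralogues of Dtx1, named with their values seen, were not alike. Dtx4 stood at 36.8 and 19.8 CPM in B1a and 8.76 and 5.18 CPM in B2 (log2 fold change 2.03, SE 0.56, adjusted p = 0.111), and Dtx3 at 73.4 and 36.4 CPM in B1a and 21.9 and 20.6 CPM in B2 (1.37, SE 0.40, adjusted p = 0.128). Neither was called by edgeR, whereas each passed in 4 of 10 alternatives, and Dtx2 overlapped between the groups.

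Ligands and the remaining receptors were rare. Notch4, whose reads are split over near-identical entries in the files, stood at 0.54 and 0 CPM in B1a and 6.16 and 10.3 CPM in B2 (adjusted p = 0.195), and Notch3 had too few counts to be tested. Among the ligands tested, Dll3 stood at 4.65 and 4.00 CPM in B1a and 1.55 and 2.73 CPM in B2, and Jag2 at 8.70 and 3.15 CPM in B1a and 1.13 and 1.05 CPM in B2. Dll1 had 0 counts in both B1a libraries and 3.73 and 1.78 CPM in B2, and passed the filter through B2 alone. Its B2 mean was 10.2-fold the mean floor of 3 counts per B1a library, which covers counting error only. None of the 3 was called (adjusted p = 0.717, 0.348 and 0.145). Of the further targets, Nrarp stood at 0 and 3.33 CPM in B1a and 4.42 and 4.65 CPM in B2 (adjusted p = 0.768), Hes7 had too few counts to be tested, and Hey1, Hey2 and Heyl were at 0 in all 4 libraries.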

How the data were processed

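Wild-type B1a (n = 2) and follicular B2 (n = 2) libraries were analyzed. Per the labels, rRNA-depleted total RNA was used, although the methods name another kit of the same maker. The study's discussion states instead that polyadenylated RNA was enriched, so the RNA fraction is not settled here. The authors mapped reads to mm10 and counted RefSeq genes by RSEM (1.2.29 in the submitters' processing notes, another version in the methods). The authors deposited an expected count per gene entry, which is not normalized and shares out reads that match several entries. The authors also deposited TPM, scaled to a common total, and a signal column holding the posterior standard deviation of each count, which for Rbpj was small beside its counts. FPKM was not used. The strand setting of the counting is not given in the sources used here.

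Counts of the 21970 entries were summed over 20599 symbols (951 symbols have several entries), rounded, filtered with filterByExpr (12078 genes kept) and TMM-scaled (factors 0.963 to 1.05). edgeR 4.0.16 (quasi-likelihood, Benjamini-Hochberg adjustment over all tested genes, threshold 0.05, R 4.3.3) compared B1a with B2, with standard errors derived from the F statistic. The study's own test, EBSeq, was not run. Total counts were 11578785 and 11558489 (B1a) and 11032732 and 18588623 (B2). A floor of 3 counts equals 0.269 and 0.270 CPM (B1a) and 0.260 and 0.157 CPM (B2), and covers counting error only. The methods name 2 control animals for each cell type, so p-values measure the spread between 2 animals per group.

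The members, the pathway and marker lists and the tests were chosen with earlier results of these data known. All members were named. Of other pathway genes, those called and, per role, up to 3 with the highest mean TPM were named, apart from 1 that is not reported here. Alternatives were DESeq2 1.42.0, limma 3.58.1 (voom, and log2 TPM with a pseudocount of 1 or 0.1), upper quartile factors, a minimum of 10 counts in each library, a minimum of 1 count in any library, a replicate block and leaving out each library. Chosen after seeing the data were voom with a weight per cell type, and the entries as deposited. Scripts were tested on simulated data. Promoter windows came from RefSeq on GRCm38.p6. The Dnmt3a-deficient libraries were not analysed here.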

Additional observations from a re-analysis of the deposited data

How the results depend on the processing

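Of the members, Notch1, Maml1 and Dtx1 kept their sign and stayed uncalled under each alternative other than leaving out a library. Members called numbered 1 in the main fit, 4 with DESeq2, 3 with the replicate block and 2 with limma-voom, with at least 10 counts in every library, without a filter and with voom weights. Other pathway genes called numbered 2 in the main fit, 12 with DESeq2, 11 with the block, 8 with voom weights, 7 without a filter, 4 with at least 10 counts and 1 with upper quartile factors or entries as deposited. All tested genes called numbered 693 (5.74%) in the main fit, 1550 (12.8%) with DESeq2, 1481 (12.3%) with the block and 1415 (11.7%) with voom weights. The number was 1141 (7.75%) without a filter, 944 (9.38%) with at least 10 counts and 877 (7.26%) with limma-voom. It was 664 (5.50%) with upper quartile factors, 654 (5.22%) with entries as deposited and 359 (2.98%) on log2(TPM + 0.1). Maml2 was called at -1.66 with DESeq2, -1.80 with limma-voom and with voom weights, -1.65 with at least 10 counts or without a filter, -2.27 and -2.29 on log2(TPM + 1) and log2(TPM + 0.1), and -1.81 with the block. Hes1 was called at -2.75 with DESeq2 and -3.22 with the block, Notch2 at 0.28 with DESeq2, and Rbpj was uncalled at 0.72 and 0.73 on the TPM scales. Mfng reversed to -0.025 (upper quartile) and -0.19 (both TPM scales), and Adam10 to -0.077 and -0.078 (TPM scales). Hes5 reversed to -1.92 (limma-voom), -0.75 and -2.25 (TPM + 1 and TPM + 0.1), -1.70 (block) and -1.95 (voom weights). Ctbp1 reversed to -0.055 on both TPM scales. Where not shown by the construction of the alternative, the cause was not tested.

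The TPM scales moved the median log2 fold change of all genes from -0.03 to -0.30 (pseudocount 1) and -0.32 (pseudocount 0.1), and the share of calls higher in B1a from 73.9% to 53.3% and 54.6% (60.0% with the block). Relative to that median on log2(TPM + 1), Rbpj stood at 1.01, Mfng at 0.10 and Adam10 at 0.22. The study names no pairing of the libraries by replicate number. Deviations of same-numbered libraries correlated at r = -0.03 across genes, which cannot settle whether they were paired. The block results are therefore given here only as a setting.

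Leaving out 1 library assumes that the lone library varies like the other group. Without B1a replicate 1 or 2, where the spread came from B2 alone, 3953 and 6143 genes were called, and without either B2 library 539 and 559. The members called ranged from 1 to 7 and other pathway genes from 1 to 26. Log2 fold changes ranged from -0.23 to 0.086 for Notch1, 0.23 to 0.31 for Notch2, -0.061 to 0.15 for Mfng, -0.10 to 0.40 for Adam10, 0.86 to 1.07 for Rbpj, -0.26 to 0.065 for Maml1, -2.53 to -1.11 for Maml2, -0.99 to 0.014 for Dtx1, -4.59 to -1.97 for Hes1 and -8.65 to 1.82 for Hes5. Those of Itch (-0.11 to 0.056), Rfng (-0.61 to 0.14) and Dtx2 (-0.50 to 0.22) changed sign.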

Other observations

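Rbpjl encodes a paralogue of RBPJ that does not bind Notch and is known from the exocrine pancreas. It was on neither list and was chosen after its values were seen. It had 0 counts in both B1a libraries and 2.66 and 2.20 CPM in the B2 libraries (30.7 and 42 counts), and passed the filter through B2 alone. Its B2 mean was 9.01-fold the mean floor of 3 counts per B1a library, which covers counting error only. The difference was not called by edgeR's quasi-likelihood test (adjusted p = 0.148). Hes6, a relative of Hes1 chosen the same way, stood at 46.2 and 26.0 CPM in B1a and 26.5 and 23.3 CPM in B2, with overlapping groups (log2 fold change 0.53, SE 0.39, adjusted p = 0.521).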
